A study of Mus musculus with 8 samples.

Results

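The genes that lie around Deaf1 on mouse chromosome 7 were followed across 8 microarrays of the pancreatic lymph node, which drains the pancreas. They were chosen by position alone: non-control probes whose mm8 coordinates in the 4-week array files lay on chromosome 7, from 20 Mb before a reference position in Deaf1 to the end of the chromosome. Deaf1 itself, a few other single genes and several large gene families were left out of the selection, 31 probes of 21 genes in all. The selection held 564 of the 41174 probes and 391 of the 27597 genes on the array, from base 121184350 to base 145118893, and reached 3.97 Mb to the distal side of Deaf1. Of these genes 308 were bright enough to be tested, 240 on the proximal side and 68 on the distal side. The other 83, among them 9 olfactory receptors, did not pass the filter on dim probes.

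RNA of a Deaf1 knockout sample (Cy5) was hybridised on each array beside RNA pooled from age-matched wild-type littermates (Cy3), all on the BALB/c background. The 4-week group had 2 arrays and pools of 2 mice, and the 12-week and 30-week groups had 3 arrays each and pools of 3 mice. The labels call the arrays of an age biological replicates, and they do not say which part of Deaf1 was deleted, the sex of the mice, or the strain of the stem cells and the number of backcrosses. The knockout always carried the same dye and wild-type mice were not hybridised singly, so no test below accounts for dye bias or for the spread of wild-type mice, and if the arrays of an age share 1 pool, as assumed here from the pool sizes in the labels, age and pool cannot be told apart.

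DEAF1 is a transcription factor that binds DNA at TTCG motifs, and in the lymph node it is known for its part in the expression of tissue antigens by stromal cells. When a gene is disrupted by targeting in stem cells and the mutation is bred onto another strain, the DNA around it is inherited with it. Genes near the target can therefore differ between mutant and wild-type littermates by their own alleles, and a targeting construct can alter the transcription of its neighbours. For that reason, the genes flanking a knockout are read by their distance from it.

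Promoters are shown first for Deaf1, for Tmem80, the neighbour on which the nearest result turns, and for Gdpd3, the gene with the largest rise. The sequences are the 250 bases before each start site on the gene's own strand, from RefSeq (GRCm38.p6), and capitals mark TTCG or its reverse complement CGAA. The Deaf1 window lies at chr7:141327726-141327975 on the minus strand, the Tmem80 window at chr7:141327880-141328129 on the plus strand, and the Gdpd3 window at chr7:126766164-126766413 on the plus strand.
Deaf1: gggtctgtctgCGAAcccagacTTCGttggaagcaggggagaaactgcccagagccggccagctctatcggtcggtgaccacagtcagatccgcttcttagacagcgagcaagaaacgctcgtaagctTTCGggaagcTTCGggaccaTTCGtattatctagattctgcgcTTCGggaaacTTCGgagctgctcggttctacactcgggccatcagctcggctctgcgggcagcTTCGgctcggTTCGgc
Tmem80: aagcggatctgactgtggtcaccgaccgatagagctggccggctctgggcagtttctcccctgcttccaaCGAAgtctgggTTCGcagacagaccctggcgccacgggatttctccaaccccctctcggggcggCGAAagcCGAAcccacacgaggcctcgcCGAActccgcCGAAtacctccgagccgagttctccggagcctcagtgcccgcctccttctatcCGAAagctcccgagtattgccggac
Gdpd3: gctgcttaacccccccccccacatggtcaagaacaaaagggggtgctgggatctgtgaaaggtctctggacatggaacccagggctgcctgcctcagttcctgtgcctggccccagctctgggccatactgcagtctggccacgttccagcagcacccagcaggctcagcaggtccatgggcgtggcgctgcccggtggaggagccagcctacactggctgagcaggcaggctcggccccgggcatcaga

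Deaf1 and Tmem80 are transcribed away from each other from start sites 405 bases apart, and their windows share 96 bases. The Deaf1 window held 9 TTCG on either strand, 3 of them followed by GG as TTCGGG, and the Tmem80 window held 7 TTCG and 0 TTCGGG. The Gdpd3 window held 0 TTCG. Over both strands, TTCG stood in at least 1 window of 41.6% of all 27025 genes, at a median GC content of 52.8%. It stood in 54.1% of the 218 tested members with a window, at a median GC content of 59.6%. There were 32851 windows, and a gene with several was read by its highest value. A count of 7 or more, which is Tmem80's own, was found in 8 genes (0.0296%). These matches describe letters in a window and not binding.

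The arrays read these genes through probes of 60 bases. The middle 30 bases (16 to 45) are shown for 4 of the members that differed at all ages, as examples, with G and C in capitals. Tmem80 and Qprt, which fell, had probes of 55% GC at chr7:141187810-141187869 (plus strand) and chr7:126899109-126899168 (minus strand) of mm8. Gdpd3 and Ccnd1, which rose, had probes of 41.7% and 40% GC at chr7:126562154-126562327 (plus strand) and chr7:144739658-144739717 (minus strand).
Tmem80: aGaGCCtGttGtaCttaGttGCCaGaCCtt
Qprt: CCaGaatGGaCtaCtGCGGCttGttGGGCa
Gdpd3: CCaaCtGtCGGCtaCCattaCaaaatGGat
Ccnd1: aCaGCattGtGCtaatGtaaaGaCtCtGCC
Over all members called in the mean of the ages, defined below, the median probe GC content was 41.7% for those higher in the knockout and 48.3% for those lower. Single members went the other way: Hirip3, which rose, had a probe of 53.3% GC, and Mvp, which fell, one of 43.3%. Across the members of an array, Spearman's rho between the ratio and the probe GC content lay between −0.34 and −0.0018, and across all genes between −0.39 and −0.15. GC content thus tended to move with the ratio among the members as among all genes, though hardly among the members on replicate 2 of 12 weeks (−0.0018). Its part in the results was not tested.

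Values below are knockout over wild-type log2 ratios after background correction and loess normalisation, with the standard error of a limma fit over all 8 arrays. A gene is called where its Benjamini-Hochberg adjusted p, over all 18410 genes tested, was under 0.05, and the mean of the ages gives each of the 3 ages equal weight. No spot was saturated, and the probes well above background made up 37.2% to 62.6% on the wild-type side and 46.8% to 71.5% on the knockout side. Of 10 lymph node markers tested, 9 passed that limit for wild type on all 8 arrays. The brightest Deaf1 probe, at chr7:141152927-141152986 (mm8), read −0.22 and −0.12 at 4 weeks, 0.34, 0.35 and 0.32 at 12 weeks and 0.14, 0.00 and 0.15 at 30 weeks. Another passing Deaf1 probe, at chr7:141166259-141172439, read −0.29 and −0.10, then 0.12, 0.15 and 0.18, and then −0.74, 3.11 and −0.62 at the same ages. The probes thus differed at 30 weeks, where the other probe read far higher on replicate 2. Whether either lies in the deleted part is not given in the sources used here, and neither checks the genotype.

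A pair of arrays stood apart before any member was read. On replicate 2 of 12 weeks the X-linked Xist read 5.32 and the Y-linked Eif2s3y −4.86, against −0.40 and 0.33, and 0.78 and 0.48, on replicates 1 and 3, so the sex of this knockout sample and of its pool differed in the data. Among the named members 0 calls at 12 weeks were lost without it. The wild-type Xist level was 12.7 and 13.4 at 4 weeks, 7.55 to 7.71 at 12 weeks and 12.6 at 30 weeks. That of Eif2s3y was 5.97 to 6.15, 9.76 to 9.80 and 6.23 to 6.30 at the same ages. Knockout replicates 1 and 3 of 12 weeks read 7.31 and 7.88 for Xist, against 12.9 to 14.1 on the other arrays. The pools thus differed in sex between 12 weeks and the other ages, so age and sex cannot be told apart in comparisons with 12 weeks. Replicate 2 of 30 weeks differed from its group in pancreatic acinar markers, whose values are given with the members they moved with. Results that changed without either array are given with and without it.

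Differences among the flanking genes were about as frequent as in the whole set of genes at 4 and 30 weeks, and in the fit described here more frequent at 12 weeks. At 4 weeks 72 of the 308 members were called (23.4%), against 22.7% of all genes. Of these 31 were higher and 41 lower in the knockout, where all genes had 15.3% higher and 7.38% lower. At 12 weeks 21 were called (6.82%), against 2.61% of all genes and 3.86% of the 1061 genes tested on the rest of chromosome 7. Of these 11 were higher and 10 lower (all genes 1.23% and 1.37%). At 30 weeks 119 were called (38.6%), against 39.1%, with 48 higher and 71 lower (all genes 20.7% and 18.4%). In the mean of the ages 131 were called (42.5%), against 44.1%, with 46 higher and 85 lower (all genes 25.4% and 18.7%). The median size of the ratio in the mean was 0.14 in the members and 0.13 in all genes.

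By distance, the members called at 12 weeks were 2 of the 59 within 1 Mb of Deaf1 (3.39%), 1 of 35 at 1 to 2 Mb (2.86%), 1 of 34 at 2 to 5 Mb (2.94%), 4 of 36 at 5 to 10 Mb (11.1%) and 13 of 144 at 10 to 20 Mb (9.03%). The count was 10 with the scanner's own log ratio (all genes 0.945%), 7 with the centred series matrix values (0.717%), and 2 in a fit of the 12-week arrays alone (0.0326%). Those 2 were Tmem80 and Gdpd3, and every other named 12-week call was lost in that fit. The members' share was not above that of all genes under 2 settings: with the slide as a random block 144 members were called (46.8%, all genes 48.8%), and with each array centred on its median only 160 (51.9%, all genes 56%). Without replicate 1 of 12 weeks the count was 5 (all genes 0.0978%), without replicate 3 of 12 weeks 11 (0.712%), without replicate 1 of 30 weeks 6 (0.201%), without replicate 3 of 30 weeks 6 (0.168%), and without replicate 2 of 12 weeks 46 (10.1%).

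The 4-week and 30-week counts also rested on single arrays. At 4 weeks 5 members were called without replicate 1 (all genes 2.71%), 40 without replicate 2 (15.9%) and 41 with the replicate number as a block (14.9%). At 30 weeks 69 were called without replicate 1 (22.4%) and 63 without replicate 3 (21.4%). In the mean between 90 and 140 members were called when any 1 array was left out, with 27.8% to 47.4% of all genes. The shares of all genes moved with the members' counts.

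The direction of the calls depended on the loess step, which removes the dependence of the ratio on brightness. With each array centred on its median only, the median of all genes tested was 0.34 in the mean of the ages, 0.49 at 4, 0.41 at 12 and 0.15 at 30 weeks. The split of called members into higher and lower was then 178 and 17 in the mean, 146 and 7 at 4 weeks, 151 and 9 at 12 weeks and 60 and 13 at 30 weeks. Of the 85 members lower in the mean 16 kept their sign and 58 stayed below that median, and of the 46 higher 45 kept their sign and 41 stayed above it. With the centred series matrix values the split was 55 and 50 in the mean and 42 and 21 at 4 weeks. Falls named below are therefore relative to the bulk of genes, and those whose sign turned with centring alone are named as such.

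**Figure D1:**
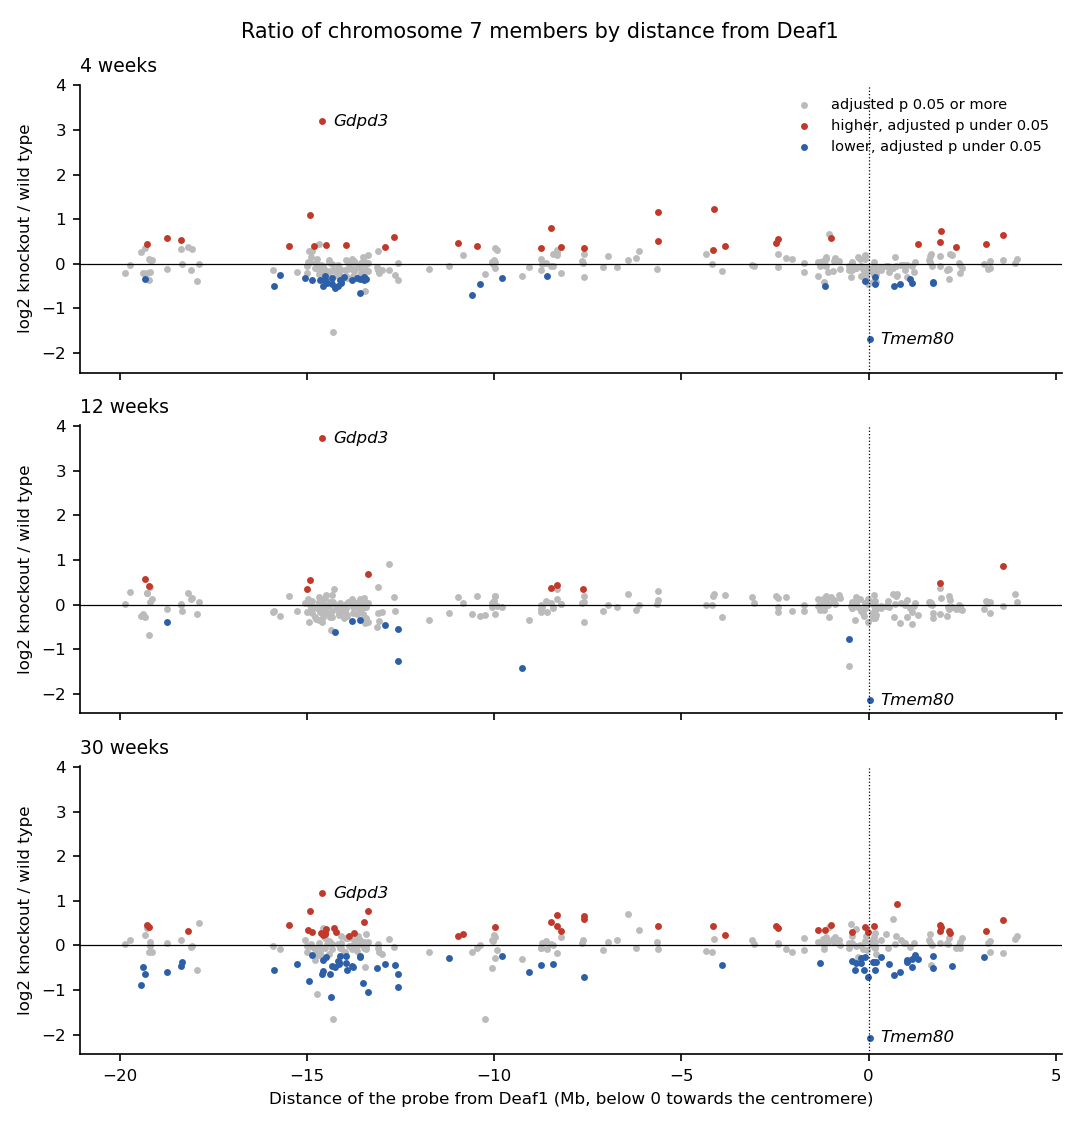
Each of the 3 panels (4, 12 and 30 weeks) plots the fitted log2 ratio of knockout over wild type of the 308 tested members against the distance of their probe from Deaf1 in Mb, with members called higher in red, called lower in blue and not called in grey. In every panel Tmem80 next to Deaf1 is the lowest member and Gdpd3 14.588 Mb away the highest. Most others lie in a band around 0 along the whole stretch. Some lie outside it, such as Zg16 at −1.52 at 4 weeks and −1.66 at 30 weeks, which was not called.

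In the mean of the ages, ratios were not larger nearer to Deaf1: 35.6% of the 59 members within 1 Mb were called, 31.4% of the 35 at 1 to 2 Mb, 29.4% of the 34 at 2 to 5 Mb, 44.4% of the 36 at 5 to 10 Mb and 50.7% of the 144 at 10 to 20 Mb. The median sizes in the same order were 0.12, 0.11, 0.09, 0.14 and 0.17, against 0.13 in all genes. At 30 weeks they were 0.22, 0.19, 0.14, 0.19 and 0.22, against 0.20 in all genes, so the nearest and the farthest window were alike in size. On replicate 3 of 12 weeks (0.14 and 0.11) and replicate 2 of 30 weeks (0.29 and 0.22) the nearest window had a larger median size than the farthest. The farthest window held the brightest probes, with a median log2 brightness of 9.84 against 8.06 within 1 Mb, and the part of brightness in the shares was not tested. On single arrays Spearman's rho between size and distance lay between −0.01 and 0.16 over 307 or 308 members, which share their array and their probes' base composition.

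**Figure D2:**
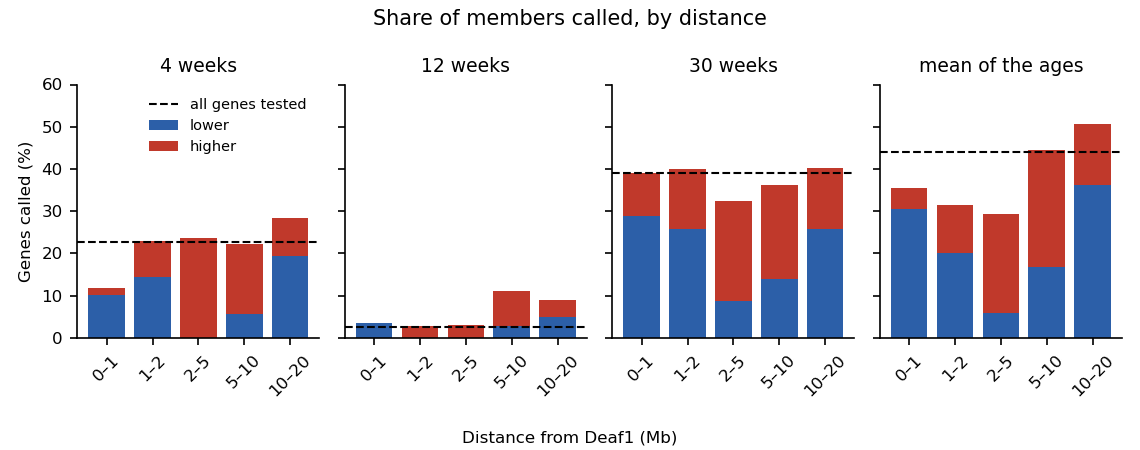
Stacked bars give the percent of tested members called lower (blue) and higher (red) in 5 windows of distance from Deaf1, with 1 panel for each age and 1 for the mean of the ages and a dashed line at the percent of all genes called. Within 1 Mb the share was 11.9% at 4 weeks, 3.39% at 12 weeks, 39% at 30 weeks and 35.6% in the mean.

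Tmem80 was the nearest tested gene with a large difference. It encodes a transmembrane protein of the transition zone of the cilium, and its probe lay 0.038 Mb distal to the Deaf1 reference position. The ratio was −2.22 and −1.15 at 4 weeks, −2.0, −2.24 and −2.19 at 12 weeks and −2.30, −1.65 and −2.26 at 30 weeks. All 8 arrays lay below −1, and the ages overlapped. The wild-type level on the log2 scale was 8.74, 9.33 and 9.39 at 4, 12 and 30 weeks, and the knockout level was 7.05, 7.19 and 7.32, above background on all arrays.

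Tmem80 fell at every age, with fitted ratios of −1.69 ± 0.24 at 4 weeks (adjusted p = 0.00243), −2.14 ± 0.19 at 12 weeks (adjusted p = 0.00615) and −2.07 ± 0.19 at 30 weeks (adjusted p = 0.000743). In the mean it fell by 1.97 ± 0.12 (adjusted p = 0.000237), the lowest mean ratio among the 18410 genes tested. Without replicate 1 of 4 weeks the 4-week value was −1.15 and no longer called (adjusted p = 0.0502), and with the scanner's own log ratio it was −3.16. The fall kept its sign with centring alone (−1.62 in the mean).

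The other members within 1 Mb differed by much less. Among all 59, 3 were higher and 18 lower in the mean (35.6% called, all genes 44.1%), and without Tmem80 the median size was 0.12. Of those called in the mean, Mob2, a regulator of NDR kinases 0.668 Mb away, read −0.52 and −0.46 at 4 weeks, −0.46, −0.20 and −0.17 at 12 weeks and −0.74, −0.60 and −0.63 at 30 weeks. It lay below 0 on all 8 arrays and fell by 0.47 ± 0.04 in the mean (adjusted p = 0.000335), but read 0.13 with centring alone.

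Sct, which encodes the hormone secretin and lies 0.02 Mb from the reference position, read −0.91 and 0.02 at 4 weeks, −0.21, −0.48 and −0.47 at 12 weeks and −0.69, −0.73 and −0.69 at 30 weeks. It fell by 0.51 ± 0.09 in the mean (adjusted p = 0.00292), and with centring alone it kept its sign but lost this call. Syce1, a protein of the synaptonemal complex of meiosis, read −0.05 and −0.04 at 4 weeks, −0.47, −0.96 and −0.90 at 12 weeks and 0.10, 0.01 and 0.05 at 30 weeks. Its low values were those of 12 weeks, where no array had the knockout channel well above background and the wild-type level was at least 1.67-fold higher. The 12-week fit gave −0.78 ± 0.09 (adjusted p = 0.0161), and without replicate 3 of 12 weeks −0.72 (adjusted p = 0.0504).

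Cyp2e1, a cytochrome P450 whose probe lies beside that of Syce1 and which was chosen after its values were seen, read −0.26 and −0.02 at 4 weeks, −2.20, −2.21 and 0.30 at 12 weeks and −0.28, −0.46 and 0.54 at 30 weeks. It was not called in any of the 3 ages, and the 12-week arrays disagreed among themselves. The 6 adipocyte markers moved with these arrays: their median ratio was −1.76, −1.61 and −0.03 at 12 weeks, and all 6 were tested. The log2 of their summed levels at 12 weeks ran from 15.3 to 15.4 in the wild-type channel and from 14.1 to 15.5 in the knockout channel. At 4 weeks the medians were −1.61 and −0.86, with sums from 14.4 to 14.8 and from 13.95 to 14.1. At 30 weeks they were −0.11, −0.49 and 0.26, with sums from 14.7 to 14.8 and from 14.4 to 15.3. For wild type, 5 of the 6 markers were well above background on all 8 arrays, and their part in the Cyp2e1 values was not tested. In whole tissue, fewer cells of a type and less RNA per cell cannot be told apart.

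**Figure D3:**
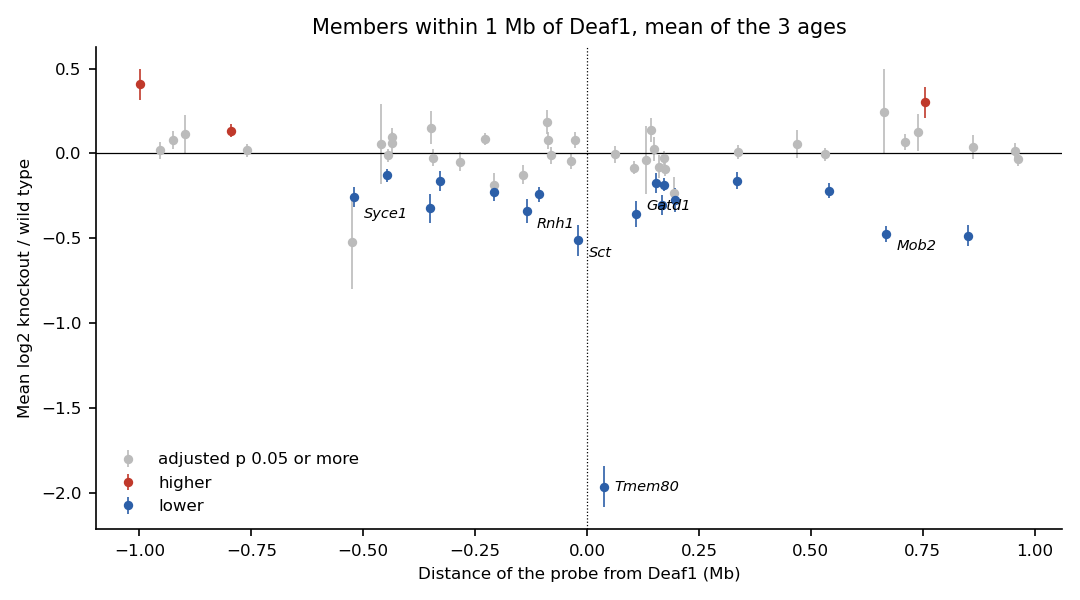
Points give the log2 ratio in the mean of the 3 ages of the 59 tested members within 1 Mb of Deaf1, with bars of 1 standard error, against the distance of the probe from Deaf1 in Mb. Red and blue mark members called higher and lower; Tmem80 lies at −1.97, and the other 58 lie between −0.53 and 0.41.

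Further members within 1 Mb fell slightly in the mean, and each of the following turned positive with centring alone. Sigirr, a negative regulator of interleukin-1 and Toll-like receptor signalling, read −0.23 ± 0.05 and Tollip, an adaptor of the same pathway, −0.22 ± 0.05. Rnh1, the ribonuclease inhibitor, read −0.34 ± 0.07, the small GTPase Hras −0.24 ± 0.04, the tetraspanin Cd151 −0.18 ± 0.04 and Ifitm1, an interferon-induced membrane protein, −0.16 ± 0.06. The falls of Gatd1 (−0.36 ± 0.08), Pgghg (−0.32 ± 0.09), Cracr2b (−0.30 ± 0.06), Chid1 (−0.27 ± 0.07), Ap2a2 (−0.16 ± 0.05) and Odf3 (−0.13 ± 0.04) turned in the same way. Without replicate 1 of 4 weeks the calls of Sigirr (−0.21), Pgghg (−0.28) and Chid1 (−0.24) were lost. Odf3 lost its call without either 4-week array or replicate 1 of 30 weeks (−0.14 to −0.12) and Ap2a2 without replicate 1 of any age or replicate 2 of 30 weeks (−0.15 to −0.13). Ifitm1 lost it without any array but replicate 3 of 12 weeks (−0.17 to −0.11). The 2 other probes of Tollip read −0.05 and 0.03. Among the 3 members higher in the mean was the olfactory receptor gene Olfr536 at 0.13 ± 0.04, which was above background in the knockout channel only and turned to −0.06 with centring alone.

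At single ages, 7 members within 1 Mb were called at 4 weeks (11.9%, all genes 22.7%), 1 higher and 6 lower. Cd151 fell by 0.44 ± 0.07, Hras by 0.39 ± 0.09, Mob2 by 0.49 ± 0.09 and Polr2l, a subunit shared by RNA polymerases, by 0.30 ± 0.09, and each turned positive with centring alone. All 4 lost their calls without replicate 1 of 4 weeks, where the values were −0.37 for Cd151, −0.30 for Hras, −0.46 for Mob2 and −0.22 for Polr2l. Polr2l also lost its call without replicate 2 of 4 weeks (−0.39) and without replicate 1 or 3 of 30 weeks.

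At 30 weeks 23 members within 1 Mb were called (39%, all genes 39.1%), 6 higher and 17 lower. Besides Tmem80, the falls of Sct (−0.70 ± 0.15), Mob2 (−0.66 ± 0.07), Rnh1 (−0.55 ± 0.11), Cracr2b (−0.55 ± 0.09), Tollip (−0.42 ± 0.07) and Odf3 (−0.34 ± 0.06) kept their calls when any 1 array was left out. With centring alone, however, the calls of Mob2, Rnh1, Tollip and Odf3 were lost. Tollip also lost its call over the mean of its probes, and its 2 other probes read −0.12 and 0.16 at 30 weeks. The calls of Sigirr (−0.28), Hras (−0.26) and Ap2a2 (−0.27) were lost without any of the 3 arrays of 30 weeks, with values from −0.33 to −0.23, and Sigirr and Hras turned to 0.06 and 0.02 with centring alone. Ifitm1 (−0.40) was lost without replicate 2 or 3 (−0.41 to −0.36) and Pgghg (−0.55) without replicate 1 or 3 (−0.56 to −0.49). Pkp3 (−0.38), Gatd1 (−0.37) and Chid1 (−0.36) each lost the call without either 4-week array or replicate 1 or 3 of 30 weeks. Pkp3 and Gatd1 also lost it without replicate 2 of 30 weeks, and Gatd1 and Chid1 without replicate 3 of 12 weeks, with values from −0.41 to −0.28 over these arrays.

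The named rises at 30 weeks within 1 Mb were likewise fragile. Pidd1, a death-domain protein, read 0.23, 0.81 and 0.29 and was called at 0.45 ± 0.11, but read 0.26 and was not called without replicate 2. Lrrc56 (0.42 ± 0.12) and Ric8a (0.31 ± 0.09) lost their calls without any of the 3 arrays of 30 weeks, with values from 0.31 to 0.48 and from 0.26 to 0.34. Cdhr5 (0.29 ± 0.08) lost its call without replicate 2 or 3 (0.26 each). No other probe of Pidd1, Ric8a or Cdhr5 had the sign of the probe used in the mean of the ages. At 30 weeks the other probes read −0.10 and −0.22 for Pidd1, 0.01 and −0.23 for Ric8a and −0.17 for Cdhr5.

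Away from Deaf1, Gdpd3, a lysophospholipase D that cleaves lysophospholipids, had the largest rise. Its probe lay 14.588 Mb proximal to the reference position. The ratio was 3.81 and 2.59 at 4 weeks, 3.71, 3.98 and 3.49 at 12 weeks and 1.23, 1.12 and 1.14 at 30 weeks. All 8 arrays lay above 1, and every 30-week array lay below every array of the younger ages.

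The wild-type level of Gdpd3 on the log2 scale was 8.12, 8.84 and 11.22 at 4, 12 and 30 weeks, and the knockout level was 11.33, 12.57 and 12.39. The ages thus differed more in the wild-type channel than in the knockout channel between 12 and 30 weeks. At 4 weeks the wild-type channel was well above background on 1 of 2 arrays. Gdpd3 rose by 3.20 ± 0.24 at 4 weeks (adjusted p = 0.000415), by 3.73 ± 0.19 at 12 weeks (adjusted p = 0.000383) and by 1.17 ± 0.19 at 30 weeks (adjusted p = 0.00273). With the scanner's own log ratio the 4-week value was 5.33. The mean was 2.70 ± 0.12 (adjusted p = 5.37e-05), the highest mean ratio among the 18410 genes tested, and these 4 calls held without any 1 array.

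**Figure D4:**
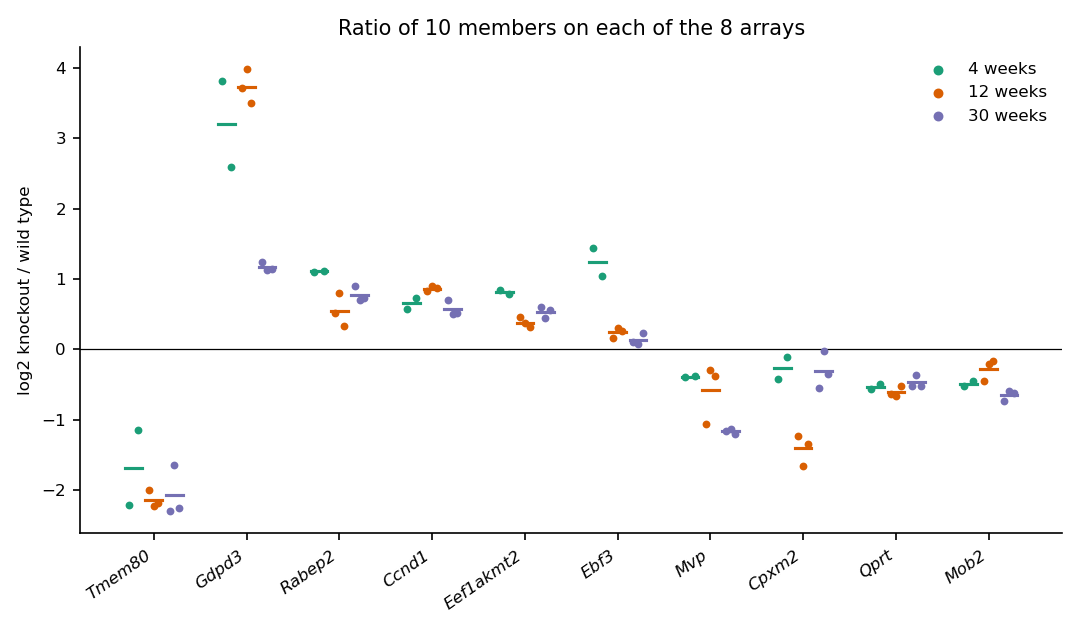
The log2 ratio on each of the 8 arrays is plotted for 10 named members, with points coloured by age and a short bar at the mean of each age. Gdpd3 sits above 1 and Tmem80 below −1 on all 8 arrays, and the 30-week points of Gdpd3 lie near 1.17.

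Among the listed genes around Gdpd3, most calls went the other way. Of the 33 tested genes on a list for this gene-dense stretch, Gdpd3 included, 2 were higher and 16 lower in the mean (all genes 25.4% and 18.7%), with a median of −0.16 against 0.03 over all genes. At 4 weeks 2 were higher and 13 lower (45.5% called, all genes 22.7%). At 12 weeks 1, which was Gdpd3 itself, was higher and 1 lower (6.06% called, all genes 2.61%). At 30 weeks 6 were higher and 11 lower (51.5% called, all genes 39.1%). The list does not hold every tested member of the stretch. Those left out include a member called higher in the mean (0.20 ± 0.06) and another called lower (−0.31 ± 0.07). Mapk3, the kinase ERK1, whose probe lies directly beside that of Gdpd3 at chr7:126556607-126556666, read −0.26 and −0.27 at 4 weeks, −0.72, −0.18 and −0.26 at 12 weeks and −0.65, −0.62 and −0.64 at 30 weeks. It fell by 0.43 ± 0.06 in the mean (adjusted p = 0.00111), with all 8 arrays below 0, and read 0.17 with centring alone.

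Qprt, an enzyme of NAD synthesis, read −0.57 and −0.50 at 4 weeks, −0.63, −0.67 and −0.52 at 12 weeks and −0.53, −0.37 and −0.52 at 30 weeks. Its arrays hardly differed between ages, and it fell by 0.54 ± 0.04 in the mean (adjusted p = 0.000237) and was called at each age. The 4-week call was lost without replicate 1 of 4 weeks (−0.50) and the 12-week call without replicate 1 of 12 weeks (−0.59). With centring alone the 4-week value turned to 0.14, and the calls in the mean and at 12 weeks were lost. The 12-week call was also lost with the centred series matrix values. Mvp, the major vault protein, read −0.40 and −0.39 at 4 weeks, −1.06, −0.30 and −0.38 at 12 weeks and −1.16, −1.13 and −1.20 at 30 weeks. Replicate 1 of 12 weeks lay close to the 30-week arrays, and the mean fell by 0.71 ± 0.08 (adjusted p = 0.000522). That call in the mean was lost with centring alone. Maz, a zinc finger transcription factor, fell by 0.40 ± 0.04 in the mean, while its 2 other probes read −0.07 and −0.04. Its call in the mean was also lost with centring alone.

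At all 3 ages, 5 members were called higher (1.62%) and 4 lower (1.3%), against 0.483% and 0.315% of all genes. Only Gdpd3 and Tmem80 of these kept their 12-week calls in a fit of the 12-week arrays alone. Besides Gdpd3 and 1 member without a gene name, those higher were Rabep2, Eef1akmt2 and Ccnd1. Rabep2, an effector of the endosomal GTPase Rab5, read 1.10 and 1.11 at 4 weeks, 0.51, 0.80 and 0.33 at 12 weeks and 0.90, 0.70 and 0.73 at 30 weeks. It rose by 0.81 ± 0.06 in the mean (adjusted p = 0.000237), and its 12-week call (0.54) was lost without either 4-week array, replicate 1 of 12 weeks, or replicate 1 or 3 of 30 weeks, with values from 0.54 to 0.56.

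Ccnd1, cyclin D1, which drives entry into the cell cycle, lay 3.59 Mb distal to Deaf1 and read 0.57 and 0.73 at 4 weeks, 0.83, 0.89 and 0.86 at 12 weeks and 0.70, 0.49 and 0.52 at 30 weeks. The 12-week arrays were the highest, and it rose by 0.69 ± 0.04 in the mean (adjusted p = 0.000237). Eef1akmt2, a methyltransferase of the elongation factor eEF1A, read 0.84 and 0.78 at 4 weeks, 0.45, 0.37 and 0.31 at 12 weeks and 0.59, 0.44 and 0.56 at 30 weeks. Its 4-week arrays were the highest, and it rose by 0.57 ± 0.04 in the mean (adjusted p = 0.000237).

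Besides Tmem80 and Qprt, the members lower at all 3 ages were Srcap, a chromatin remodelling ATPase, and Fbxl19, an F-box protein with a CpG-binding domain. Srcap fell by 0.39 ± 0.04 and Fbxl19 by 0.31 ± 0.04 in the mean, and both turned positive with centring alone (0.21 and 0.0061). For Srcap 2 of 3 other probes had the same sign in the mean.

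Ebf3, a transcription factor of the early B-cell factor family, read 1.45 and 1.04 at 4 weeks, 0.16, 0.30 and 0.26 at 12 weeks and 0.11, 0.07 and 0.24 at 30 weeks. The 4-week arrays stood apart from all others, and the 4-week rise was 1.24 ± 0.10 (adjusted p = 0.000456). Mki67, a marker of proliferating cells, read 1.53 and 0.79 at 4 weeks, 0.69, 0.00 and 0.20 at 12 weeks and 0.17, −0.22 and −0.20 at 30 weeks. Its 4-week rise of 1.16 ± 0.20 (adjusted p = 0.00571) was lost without replicate 1 of 4 weeks (0.79), and its other probe read 0.69 at 4 weeks.

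The remaining large falls at 4 weeks were those of Tacc2, Orai3 and Paox, and each turned positive with centring alone. Tacc2, a centrosomal protein, fell by 0.70 ± 0.16, Orai3, a store-operated calcium channel, by 0.66 ± 0.09, and Paox, a polyamine oxidase, by 0.51 ± 0.09. All 3 calls were lost without replicate 1 of 4 weeks, where the values were −0.96, −0.50 and −0.43. That of Tacc2 was also lost without replicate 2 (−0.44). The other probe of Tacc2 read −0.14 at 4 weeks, and that of Paox −0.64.

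At 12 weeks, Cpxm2, a carboxypeptidase-like secreted protein, had the largest fall after Tmem80. It read −0.42 and −0.11 at 4 weeks, −1.23, −1.65 and −1.34 at 12 weeks and −0.56, −0.02 and −0.36 at 30 weeks. All 3 arrays of 12 weeks lay below all 5 others, and the 12-week fit gave −1.41 ± 0.12 (adjusted p = 0.00426). That call was lost in a fit of the 12-week arrays alone. The other probe of Cpxm2 read −0.27, −0.94 and −0.50 at the 3 ages. Pycard, the inflammasome adaptor ASC, read −0.23 and −0.10 at 4 weeks, 0.68, 0.98 and 0.40 at 12 weeks and 0.79, 0.66 and 0.85 at 30 weeks. The 12-week value was 0.68 ± 0.10 (adjusted p = 0.0285) and the 30-week value 0.77 ± 0.10 (adjusted p = 0.00139). The small values below 0 at 4 weeks are not read as a fall. Its other probe read −0.06, 0.84 and 0.96 at the 3 ages. The 12-week call was lost without replicate 1 of 12 weeks or replicate 1 or 3 of 30 weeks (0.68 to 0.69).

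Smaller 12-week calls were those of Sec23ip, which acts in transport from the endoplasmic reticulum (−0.55 ± 0.07), and of Zranb1, a deubiquitinase (0.45 ± 0.09). Sec23ip lost its call without replicate 1 of 12 weeks or replicate 1 or 3 of 30 weeks (−0.55 to −0.52) and turned to 0.06 with centring alone. Zranb1 lost it without any array but replicate 2 of 12 weeks (0.37 to 0.45).

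Further calls at 30 weeks were found far from Deaf1. Cog7, a subunit of the Golgi tethering complex, fell by 0.89 ± 0.19 at 30 weeks and lost the call without replicate 3 of 30 weeks (−0.79). Stx4a, a syntaxin of the plasma membrane, fell by 0.83 ± 0.14 and lost the call with centring alone. Bccip, a BRCA2-interacting protein, rose by 0.66 ± 0.08 and the corepressor Ctbp2 by 0.69 ± 0.15, the latter losing its call without replicate 3 of 30 weeks (0.63). The other probe of Ctbp2 read 0.06 at 30 weeks and 0.05 in the mean, and that of Stx4a −1.17 at 30 weeks.

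Among the remaining members with equal sign on all 8 arrays, the largest rises in the mean were those of Mapk1ip1 (0.37 ± 0.06), Zranb1 (0.36 ± 0.06), the helicase Dhx32 (0.34 ± 0.04), the HIRA-interacting protein Hirip3 (0.34 ± 0.05) and the Ikaros-family factor Ikzf5 (0.32 ± 0.06). The falls were those of Cpxm2 (−0.66 ± 0.07), Uros, an enzyme of heme synthesis (−0.46 ± 0.06), Lsp1, an actin-binding protein of leukocytes (−0.45 ± 0.07), and Ears2, a mitochondrial tRNA synthetase (−0.42 ± 0.05). Lsp1 and Ears2 turned positive with centring alone (0.25 and 0.02), and the other probe of Ears2 read 0.16. Uros lost its call with centring alone. In all, 56 of the 131 members called in the mean had equal sign on all 8 arrays, 21 higher and 35 lower. The same count was not made over all genes, so it marks no trait of the flanking genes.

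The members were also read by function. The imprinted cluster, whose genes are expressed mainly from the copy of 1 parent, had 17 genes on the array, and 15 were tested. Of these 1 was higher and 2 lower in the mean (20% called, all genes 44.1%), at a median of −0.05. Tssc4 fell by 0.37 ± 0.05 and Cd81, a tetraspanin of lymphocytes, by 0.32 ± 0.04, both of which turned positive with centring alone (0.25 and 0.45). Nap1l4, a histone chaperone, rose by 0.20 ± 0.04 on its brightest probe but read −0.19 over the mean of its 3 probes. Phlda2 read 0.14 ± 0.06 and was not called, and no array had its wild-type channel well above background.

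Of 19 leukocyte genes 3 were higher and 7 lower in the mean (all genes 25.4% and 18.7%), at a median of −0.14, with Pycard (0.43 ± 0.06) and Lsp1 at the extremes. The 10 tested of 11 markers of lymph node lymphocytes and stroma had median ratios of −0.14 and −0.11 at 4 weeks, −0.46, 0.03 and 0.03 at 12 weeks and −0.41, −0.25 and −0.23 at 30 weeks. The log2 of their summed levels ran from 16.4 to 17.4 in the wild-type channel and from 16.4 to 17.6 in the knockout channel. Their part in the values of the leukocyte genes was not tested. Of 16 chromatin and RNA genes 3 were higher and 5 lower (50% called, all genes 44.1%), at a median of −0.07. Among them were Ctbp2 (0.45 ± 0.09, against 0.05 for its other probe) and Bcl7c (−0.21 ± 0.04, and 0.36 with centring alone). Of 12 mitochondrial genes 0 were higher and 4 lower (33.3% called, all genes 44.1%), at a median of −0.07. Those lower were Bckdk (−0.50 ± 0.13), Tufm (−0.26 ± 0.04), Gatd1 and Oat (−0.14 ± 0.05), and all 4 turned positive with centring alone. Bckdk lost its call without replicate 1 of 4 weeks (−0.43), and Oat without either 4-week array or any 30-week array (−0.16 to −0.13).

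At the distal end of the chromosome 2 of 6 tested genes were higher and 1 lower in the mean (50% called, all genes 44.1%). Beside Ccnd1, Ppfia1, a liprin, rose by 0.28 ± 0.04, though its 2 other probes read 0.08 and −0.18. Cttn, the actin-binding protein cortactin, fell by 0.12 ± 0.04, turned to 0.10 with centring alone, and lost its call without any array but replicate 2 of 4 weeks (−0.13 to −0.08). Tpcn2, a lysosomal channel, read 0.13 ± 0.07 and was not called. The mucin genes Muc5ac (0.06 ± 0.08), Muc6 (0.01 ± 0.04) and Muc5b (−0.01 ± 0.04) were not called, and Muc5b read 0.23 with the scanner's own log ratio. Of 6 tested olfactory receptor genes, of 15 on the array, 1 was called in the mean, Olfr536 (16.7% called, all genes 44.1%). Olfr522 read 0.16 ± 0.07, Olfr530 0.08 ± 0.05 and Olfr524 −0.04 ± 0.04.

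Changes of the ratio with age were called for few members. The wild-type pools of 12 weeks differed in sex from those of 4 and 30 weeks, so age and sex cannot be told apart here. Between 4 and 12 weeks 17 members were called (5.52%), against 6.98% of all genes, with 4 upward and 13 downward (all genes 1.37% and 5.61%), and the split was 12 and 11 with the scanner's own log ratio. Between 12 and 30 weeks 3 were called (0.974%), against 0.777%, with 2 upward and 1 downward (all genes 0.32% and 0.456%). Gdpd3 was the member that went down from 12 to 30 weeks, with a difference of −2.56 ± 0.27 (adjusted p = 0.0346). That call was lost without replicate 3 of 12 weeks or replicate 1 or 3 of 30 weeks (−2.68 to −2.55), and with the slide as a fixed block, which compares the ages within the slide that held both, the value was −2.49 (adjusted p = 0.396). With the replicate number as a block its adjusted p was 0.082, with an unaltered value. Without single arrays the count from 4 to 12 weeks ran from 0 (without replicate 1 of 4 weeks) to 24, and that from 12 to 30 weeks from 0 to 37 (without replicate 1 of 12 weeks).

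Replicate 2 of 30 weeks stood apart from the other arrays of its age. Across the members its ratios correlated with those of replicates 1 and 3 at −0.18 and −0.20, while replicates 1 and 3 correlated at 0.96. The arrays of 4 weeks correlated at 0.87 and those of 12 weeks at 0.55 to 0.75. On 12 members (3.9%, against 1.08% of all genes) replicate 2 had the opposite sign to both others and differed from each by more than 1, and on all 12 it lay above 0.

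These 12 included several genes known from secretory epithelium. Zg16, a protein of zymogen granules, read −4.01, 3.36 and −4.32 at 30 weeks, Dmbt1, a mucosal scavenger receptor protein, −4.07, 3.63 and −4.50, and Cuzd1, a protein of pancreatic zymogen granules, −3.12, 4.63 and −3.05. Nupr1, a stress-induced nuclear protein of the pancreas, read −2.76, 1.78 and −2.27. The water channel Aqp8, Lcmt1, the protease Prss8, Urah, Slc25a22, Brsk2, the potassium channel Kcnq1 and 1 member without a gene name completed the group. Being chosen for opposed arrays gives these members a wide spread at 30 weeks. That 0 of the 12 were called there therefore follows from the choice and is no result about them.

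The markers of pancreatic acinar cells moved with these values. Their median ratio over the 9 tested of 10 was −4.32, 4.03 and −4.50 at 30 weeks, against −1.39 and −0.42 at 4 weeks and −0.33, 0.22 and 0.62 at 12 weeks. The log2 of their summed levels at 30 weeks ran from 16.7 to 18.4 in the wild-type channel and from 13.9 to 20.7 in the knockout channel. At 4 weeks the sums ran from 11.5 to 11.9 and from 10.1 to 10.9, and at 12 weeks they were 10.01 and from 9.85 to 10.6. In the wild-type channel 7 of the markers were well above background on all 8 arrays, and the part of acinar RNA in the 12 members' values was not tested. Tmem80 and Gdpd3 on the same array read −1.65 and 1.12, on the same side of 0 as on the other arrays of 30 weeks. Without replicate 2, 93 members were called at 30 weeks, with 29.2% of all genes.

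**Figure D5:**
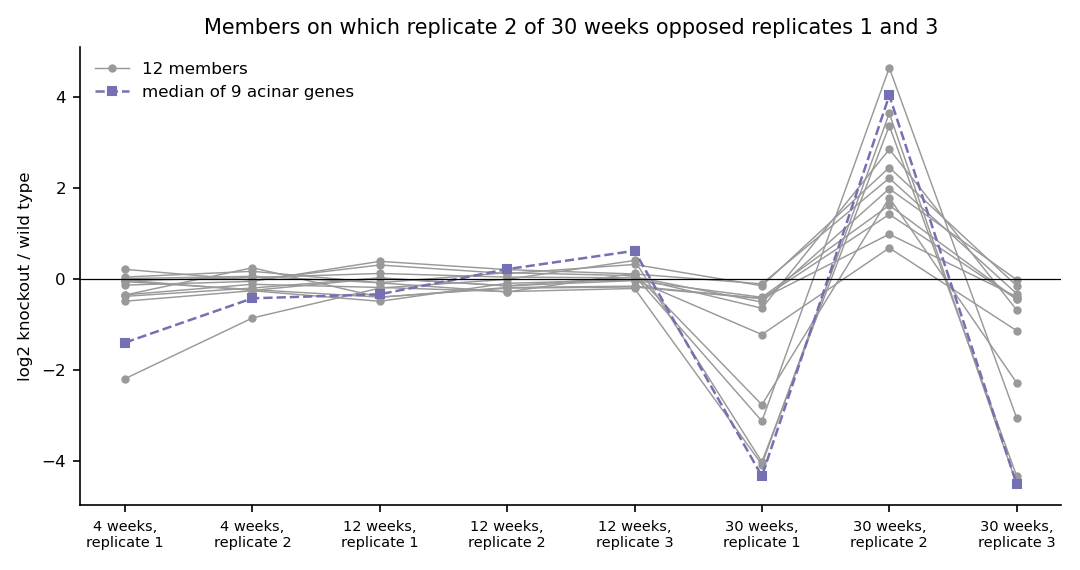
The log2 ratios of the 12 members on which replicate 2 of 30 weeks stood apart (grey) and the median of 9 acinar markers (purple squares) are plotted for the 8 arrays. Lines join the values of a gene and carry no order. All 12 members lie above 0 on replicate 2, and Zg16, Dmbt1 and Cuzd1 lie below −3 on both others.

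TTCG was also counted in the promoter windows of the called members. Of the members with a window, it stood in at least 1 window of 45 of 65 lower in the mean (69.2%), 15 of 33 higher (45.5%) and 58 of 120 not called (48.3%). The median of each gene's highest GC content was 60.8%, 64% and 58% in the same order. The longer TTCGGG stood in a window of 8.72% of the 218 members and of 6.65% of all genes. A window with no match says only that these letters are not in it.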

How the data were processed

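Each of the 8 arrays set knockout RNA (Cy5) against a wild-type pool (Cy3). Trizol and RNeasy extraction was followed by amplification of 1 µg of total RNA with an Agilent kit, per the labels' protocols. Spot and local background intensity and a log10 ratio of red over green stand in the deposited scanner output, per the file headers, written by Feature Extraction 9.5.3.1 (mm8) for 4 weeks and 10.2.1.3 (mm9) for the other ages. The deposited series matrix holds the authors' log2 ratio of processed red over processed green signal, found by comparison with the scanner values; it was not centred.

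In limma 3.58.1 (R 4.3.3), mean signals were corrected by normexp with an offset of 50 and normalised by loess within arrays, and the spots of a probe were averaged without outlier spots. A probe was kept if every array of 1 or more ages had it well above background in 1 channel, which kept 439 of the 564 member probes, and each gene was read by its brightest probe. A model with 1 mean per age was fitted over 18410 genes and 8 arrays, with 5 residual and 3.4 prior degrees of freedom, and tested with two-sided moderated statistics. It gave 6 contrasts: the 3 ages, their mean, and 2 differences between ages. Missing values numbered 27, of which 1 was a member's. Levels are channel values after loess and Aquantile normalisation. A level not above background is given as a bound, the bright group's mean over the higher of the dim probe's signal and the lowest signal well above background. Scripts were tested on simulated data, and the number of arrays limits the precision. The p-values measure the spread between these samples.

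Slide 1 held the 4-week arrays, slide 2 the 12-week arrays and replicate 1 of 30 weeks, and slide 3 the other 2. Genes were named by accession through a RefSeq annotation (GRCm38.p6, names only) for 378 member probes, by symbol for 80, by synonym for 24 and by the name in the files for 82. Promoters come from a RefSeq table of the same assembly. Coordinates of probes are those of the 4-week files (mm8). Exon and UTR positions were not analysed here.

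The members and lists were chosen with earlier results of these data known. Named are Tmem80, Gdpd3, the members within 1 Mb called in any age or in the mean, the 10 largest rises and 10 largest falls in the mean with equal sign on all 8 arrays, the 5 largest of each in every age and the 3 largest of each in the differences between ages, and up to 4 genes of each list by p. Members without a gene name are only counted. The result of 1 member that this rule would name is not reported here. Mapk3 is named by this rule, and Cyp2e1 and the members set apart on replicate 2 of 30 weeks were chosen after their values were seen.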

Additional observations from a re-analysis of the deposited data

Results flagged for a closer look

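A total of 9 differences between ages among the named members passed the test of the difference itself (limma, adjusted p under 0.05), and each was lost without at least 1 array. Each compares 12 weeks with another age, so age and sex cannot be told apart in them. From 4 to 12 weeks the ratio of Cpxm2 changed by −1.15 ± 0.19, that of Ebf3 by −0.998 ± 0.13 and that of Tial1, an RNA-binding protein, by −0.839 ± 0.11. Over the same interval that of Pycard changed by 0.85 ± 0.16, that of Orai3 by 0.545 ± 0.12 and that of Ppp4c, a protein phosphatase, by 0.535 ± 0.12. The brightest probe of Tial1 was called in opposite directions at these ages and read 0.43 and 0.35 at 4 weeks and −0.30, −0.54 and −0.51 at 12 weeks. Its other probe read 0.14 at 4 weeks and 0.06 at 12 weeks, a difference of −0.08. The other probe of Ppp4c differed by 0.56.

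From 12 to 30 weeks the ratio of Gdpd3 changed by −2.56 ± 0.27, that of Cpxm2 by 1.1 ± 0.17 and that of Syce1 by 0.832 ± 0.13. The Syce1 and Cpxm2 differences were not called when only those ages were fitted or with the slide as a fixed block. Without single arrays that lost the call, Ebf3 read −0.79, Tial1 −0.80, Cpxm2 −1.31 to −0.99 and Pycard 0.78 to 0.92 in the first interval (replicate 1 of 4 weeks for all 4, and replicate 2 of 4 weeks for Cpxm2 and Pycard). Orai3 lost its call without 6 of the arrays (0.38 to 0.54) and Ppp4c without 7 (0.45 to 0.62). In the second interval Gdpd3 lost it without 3 arrays (−2.68 to −2.55), Cpxm2 without 5 (1.10 to 1.22) and Syce1 without 6 (0.77 to 0.85).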

How the results depend on the processing

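Counts of called members moved with the setting, and where no cause is named the cause was not tested. With centring only, 153 were called at 4 weeks (all genes 53%), 160 at 12 (56%), 73 at 30 (28%), 0 from 4 to 12 weeks and 1 from 12 to 30 weeks. Series matrix values gave 7 at 12 weeks, 78 at 30, 8 and 1 in the same differences, and the scanner log ratio 10 at 12 weeks and 1 from 12 to 30 weeks. Fits of only the ages compared, with fewer arrays, gave 2 at 12 weeks, 3 and 1. The slide as a random block (correlation −0.259) gave 144 at 12 weeks, 62 and 29, and as a fixed block 0 from 12 to 30 weeks. Replicate numbers do not pair the samples (deviations of same-numbered arrays correlated at −0.08 to 0.24). The replicate block gave 41 at 4 weeks, 18 at 12, 114 at 30, 114 in the mean, 4 and 0. Leaving out 1 array gave 5 to 86 at 4 weeks, 5 to 46 at 12, 63 to 127 at 30, 90 to 140 in the mean, 0 to 24 and 0 to 37. Of 109 named calls 60 held without any 1 array and 30 in every setting.

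Signs turned with centring only in the mean for Olfr536 (−0.0643), Odf3 (0.0831), Pgghg (0.20), Ifitm1 (0.45), Sigirr (0.39), Rnh1 (0.28), Hras (0.32), Gatd1 (0.0101), Cracr2b (0.16), Cd151 (0.43), Chid1 (0.0676), Ap2a2 (0.26), Tollip (0.36), Mob2 (0.13), Lsp1 (0.25), Mapk3 (0.17), Ears2 (0.0233), Cttn (0.10), Srcap (0.21), Fbxl19 (0.0061), Bcl7c (0.36), Tssc4 (0.25), Cd81 (0.45), Tufm (0.43), Bckdk (0.0366) and Oat (0.52). They turned at 4 weeks for Hras (0.40), Cd151 (0.44), Polr2l (0.61), Mob2 (0.36), Tacc2 (0.18), Orai3 (0.23), Qprt (0.14) and Paox (0.41), at 12 weeks for Sec23ip (0.0553) and at 30 weeks for Sigirr (0.0600) and Hras (0.0226). Nap1l4 read −0.19 over the mean of its probes, and Muc5b 0.23 with the scanner log ratio and 0.33 with series matrix values. Dim probes limit what can be read at 4 weeks, where replicate 2 had 37.2% of wild-type probes well above background.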
